A study of Homo sapiens with 6 samples.

Results

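The genes described here encode ubiquitin-conjugating enzymes, the E2 step of ubiquitin transfer. They were taken from the expression table as every row whose symbol is UBE2 followed by a single letter and an optional number or ending. UBE2C and UBE2S are not in the set, and rows that the table names as pseudogenes were left out, among them UBE2NL, which is named a gene or pseudogene and averaged 0.0085 TPM. The rule gave 33 genes of 78304 in the table, and no symbol was repeated. Of these, 30 averaged 1 TPM or more across the 6 libraries, and only these were tested. UBE2U was listed at 0 in all 6 libraries. UBE2QL1 was listed at 0 in 5 and at 0.005 TPM in DMSO replicate 3, and UBE2L5 was listed at 0 in 5 and at 0.202 TPM in DMSO replicate 1. UBE2E2 passed the minimum only through the 16'-DEC libraries, since its DMSO mean was 0.735 TPM.

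Poly(A) RNA was sequenced from Huh7, a long-established human liver cancer cell line of hepatocellular origin, labelled wild type in both groups. Cells grown in plates for 24 h then received 16'-DEC or the vehicle DMSO for 24 h, with 3 libraries per group. Only the code name of the compound is used here, the labels state no dose, and the comparison addressed how it alters transcripts in liver cancer cells. The labels do not say that the libraries of a group came from separate cultures, so the tests below reflect library-to-library spread, which may be technical.

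Values are TPM, length-corrected transcript abundances, which are scaled to the same sum in every library, so levels may be set side by side between genes but are shares and not amounts. They carry no depth, and in RNA pooled from many cells, fewer cells of a kind and less RNA per cell cannot be told apart. The number of genes at 1 TPM or more was 13319 ± 169 after 16'-DEC and 15032 ± 91.4 in DMSO (mean ± SD, n = 3 libraries per group, as for every level below). All 10 hepatocyte markers exceeded 1 TPM, and their sums ran from 22027 to 23192 TPM in 16'-DEC libraries and from 19043 to 19637 TPM in DMSO libraries. APOA2 carried most of the higher sum, with means of 12700 TPM after 16'-DEC and 7692 TPM in DMSO, while the means of AFP (965 TPM after 16'-DEC, 2721 TPM in DMSO), APOB, FGB and ALB were lower. Of 10 markers of leukocytes, endothelium and stroma, 4 reached 1 TPM in some library, with sums from 883 to 1003 TPM after 16'-DEC and from 1665 to 1840 TPM in DMSO. LYZ, lysozyme, made up most of these sums, with means of 874 TPM after 16'-DEC and 1719 TPM in DMSO, and DCN was listed at 0. CD68, a leukocyte marker of the same list, went the other way, with means of 40.7 TPM after 16'-DEC and 16.8 TPM in DMSO. The part of these markers in the results was not tested.

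Ubiquitin is attached to proteins by a relay: an E1 enzyme activates it, an E2 carries it as a thioester on a cysteine, and an E3 ligase brings the loaded E2 to the substrate. The E2 often decides which lysine of ubiquitin is joined to the next. Chains through K48 mark proteins for the proteasome, chains through K63 serve signalling and DNA damage tolerance, and a few E2s carry ubiquitin-like modifiers such as SUMO, NEDD8 and ISG15 instead. In hepatocytes, which make large amounts of secreted protein, E2s of the endoplasmic reticulum feed misfolded proteins into ER-associated degradation (ERAD).

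After 16'-DEC the family split. Of the 30 tested E2 genes, 11 were higher, 14 were lower and 5 did not pass the test (limma on log2(TPM + 1), adjusted p under 0.05 over all tested genes). Across the 14275 tested genes 71.5% passed in either direction, 22.7% higher and 48.9% lower, so the lower share of the E2 genes, 46.7%, lay close to the background, and the higher share was 36.7%. The higher genes include UBE2E2, whose place rests on the minimum it passed through the 16'-DEC libraries. The groups did not overlap for 25 of the 30, UBE2E2 among them, or 83.3%, against 75.3% of all tested genes. The median change was 0.05 on the log2(TPM + 1) scale, beside -0.31 for all tested genes. On this scale, falls of at least 2-fold were found for 5 E2 genes, UBE2V2, UBE2D1, UBE2W, UBE2Q2 and UBE2T, where 23.7% of all genes fell this far. UBE2B, at -0.997, lay just short of it, although its mean TPM after 16'-DEC was 0.497 of the DMSO mean. No E2 gene rose by 2-fold, as 2.63% of all genes did.

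The split depended on the scaling. Median-of-ratios scaling moved the changes of all genes by a median of 0.32 and gave 16 E2 genes higher and 9 lower, with 37.1% of all genes higher and 37.7% lower. Quantile normalization moved them by a median of 0.46 and gave 16 higher and 10 lower, with 42% of all genes higher and 33.3% lower. An adjustment for transcript GC content and length gave 19 higher and 4 lower, with 34.5% of all genes higher and 31.7% lower. UBE2E2, which passed the minimum only through the 16'-DEC libraries, is among the higher genes under all 3 settings. Among the genes that kept their call under all 3 were UBE2M, UBE2O and UBE2L6, each higher, and UBE2V2 and UBE2T, each lower.

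Leaving out 16'-DEC replicate 1 or DMSO replicate 3 left 7 higher E2 genes in each case. The calls of the smallest changes were borderline, and leaving out any of several libraries could remove them. Among the fits without a library, UBE2D3 kept its call only without 16'-DEC replicate 3 and otherwise had adjusted p from 0.0554 to 0.125, and UBE2V1 lost its call without 16'-DEC replicate 1 or 2 or DMSO replicate 1 or 3 (0.0788 to 0.153). UBE2L3 lost it without 16'-DEC replicate 1 or 2 or DMSO replicate 2 or 3 (0.0643 to 0.143). UBE2K lost it without 16'-DEC replicate 2 (0.0645), DMSO replicate 2 (0.0609) or DMSO replicate 3 (0.0514), and UBE2Q1 without 16'-DEC replicate 1 (0.0636) or DMSO replicate 3 (0.0549). UBE2Z gained a call without 16'-DEC replicate 3, at 0.25 (adjusted p = 0.0147).

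**Figure D1:**
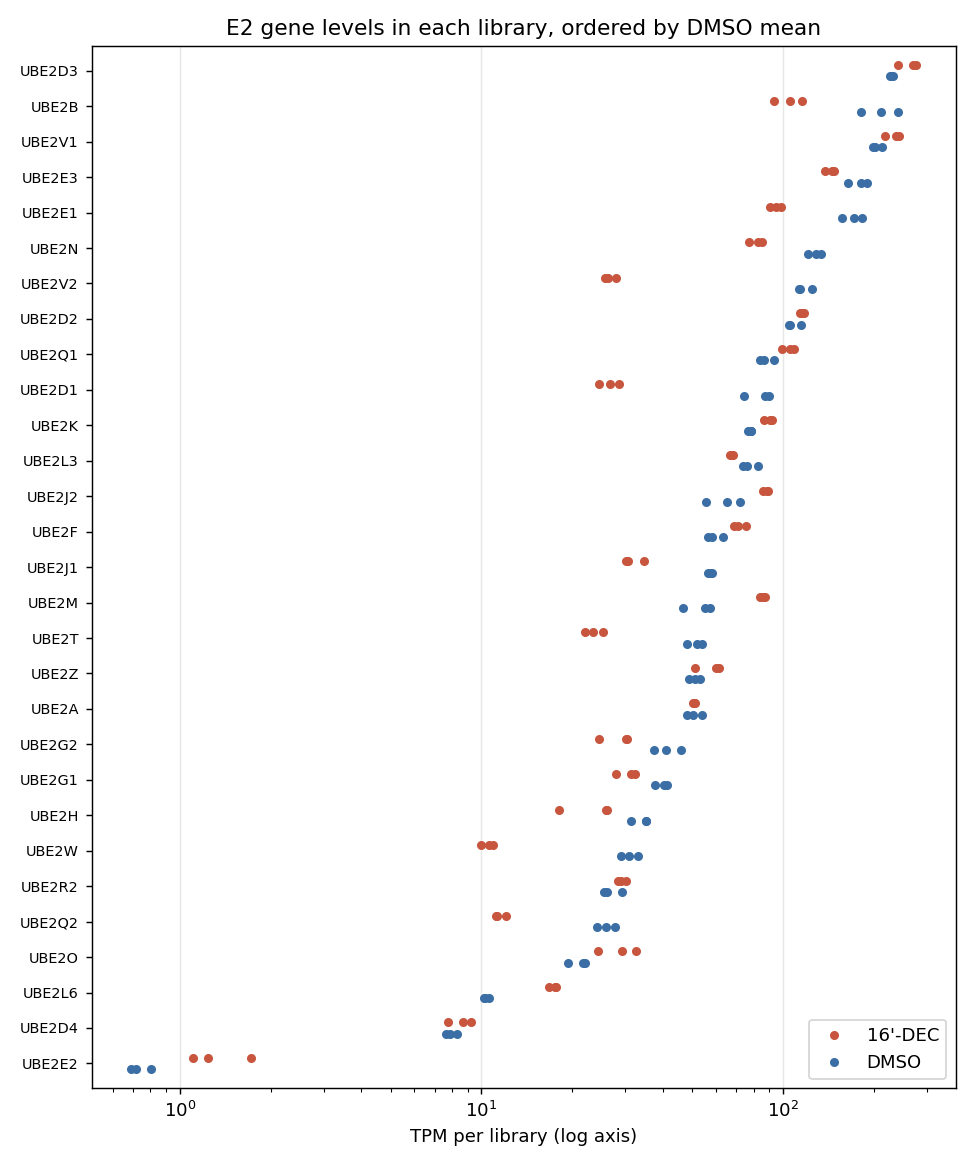
TPM of tested E2 genes in each library on a log axis, 16'-DEC points drawn above DMSO points, with genes ordered by their DMSO mean. UBE2V2, UBE2D1 and UBE2W lie far to the left in 16'-DEC libraries, while UBE2D3 leads the family by group mean, with UBE2B above it in DMSO replicate 2.

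On the deposited scale the family as a whole took a smaller part of the libraries after 16'-DEC. Its sum was 2165 ± 65.3 TPM in 16'-DEC libraries against 2466 ± 89.7 TPM in DMSO, and its libraries did not overlap. Median-of-ratios scaling moved the changes of the tested E2 genes up by a median of 0.35, and the sum was not computed on that scale. UBE2D3 was the most abundant E2 transcript in both groups by mean, at 262 ± 19.1 TPM after 16'-DEC and 228 ± 2.58 TPM in DMSO. After 16'-DEC it was followed by UBE2V1 (233 ± 12.8 TPM), and the libraries of the 2 genes overlapped. In DMSO the next were UBE2B (211 ± 30 TPM) and UBE2V1 (205 ± 6.96 TPM), which did not differ from each other beyond their spread, and the DMSO libraries of UBE2B and UBE2D3 overlapped. The least abundant tested gene was UBE2E2. UBE2B made up 4.85% ± 0.622 of all E2 TPM after 16'-DEC and 8.52% ± 0.906 in DMSO.

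Of the 5 E2s of ubiquitin-like modifiers 4 were higher, where 22.7% of all tested genes were, and none was lower either here or under the 3 settings above. Their share of all E2 TPM was 20.7% ± 0.417 after 16'-DEC and 13.8% ± 0.637 in DMSO. UBE2M, the E2 that passes NEDD8 to cullins with RBX1, had 85.5, 83.6 and 87.3 TPM in 16'-DEC libraries against 46.7, 57.4 and 55.1 TPM in DMSO libraries. Every 16'-DEC library lay above every DMSO library, and UBE2M rose by 0.68 ± 0.0897 (log2 change ± SE, adjusted p = 1.32e-04). UBE2L6, the E2 for the interferon-induced modifier ISG15, had 17.7, 16.8 and 17.6 TPM after 16'-DEC against 10.2, 10.6 and 10.2 TPM in DMSO. The 2 groups were well apart, with a rise of 0.69 ± 0.0787 (adjusted p = 5.31e-05).

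UBE2F, the second NEDD8 E2, which works with RNF7, averaged 71.6 ± 3.29 TPM after 16'-DEC and 59.4 ± 3.6 TPM in DMSO, a rise of 0.27 (adjusted p = 0.0124). Its exons share bases on the same strand with the read-through gene UBE2F-SCLY, and reads of overlapping genes cannot be told apart. With the TPM of its pseudogene rows added, a setting chosen after seeing the data, its change was 0.13 (adjusted p = 0.155). UBE2Z, an E2 charged by UBA6 with ubiquitin or the modifier FAT10, had 57.4 ± 5.46 TPM after 16'-DEC and 50.9 ± 2.03 TPM in DMSO, a difference of 0.17 that did not pass (adjusted p = 0.12).

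**Figure D2:**
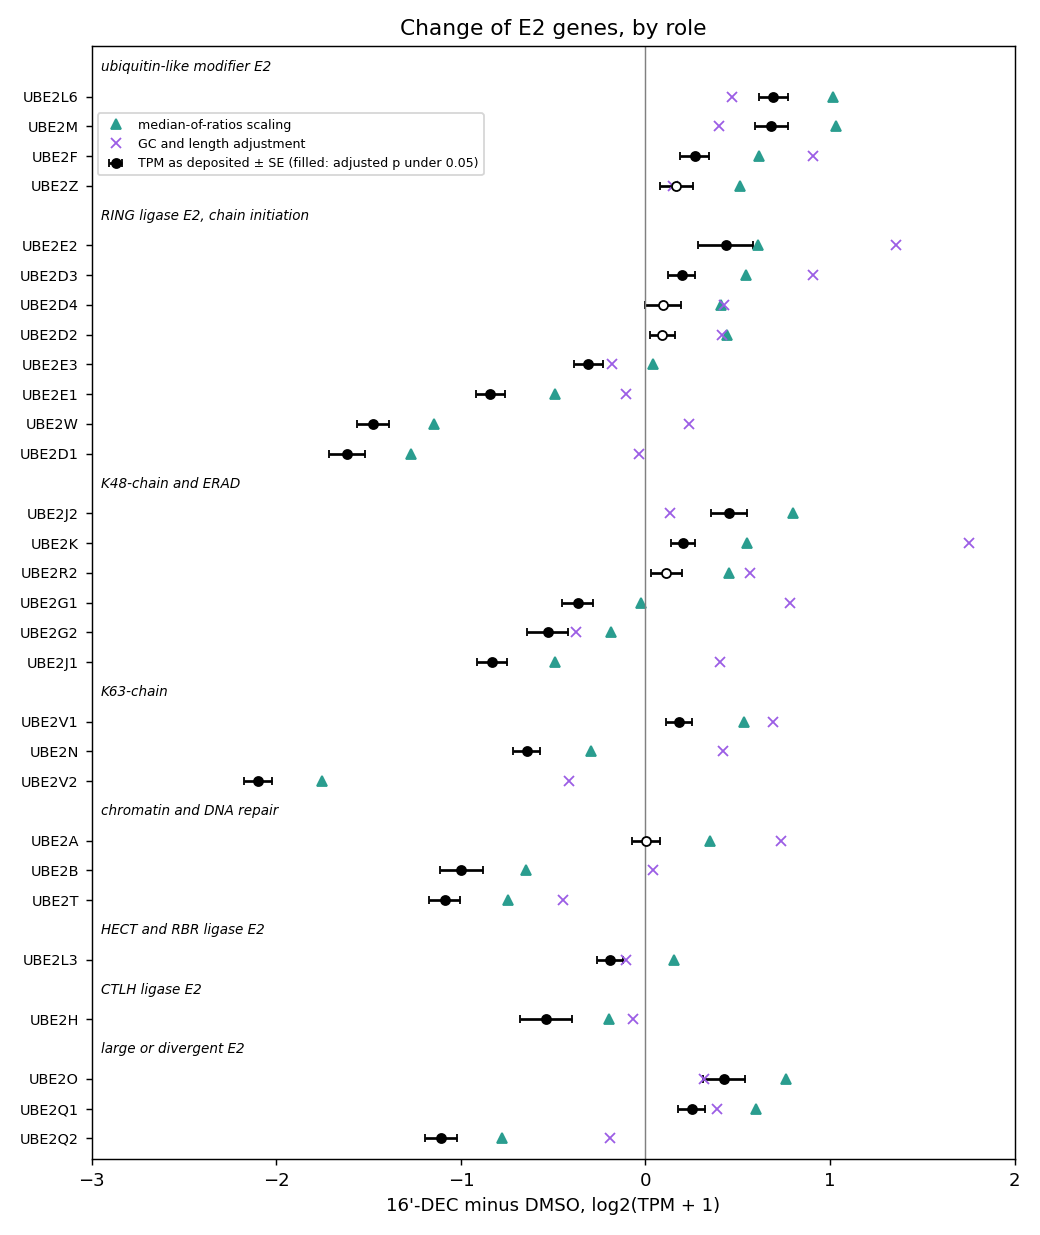
Change of tested E2 genes, 16'-DEC minus DMSO on the log2(TPM + 1) scale, grouped by role. Black points are TPM as deposited with their SE, filled where adjusted p is under 0.05, triangles are values after median-of-ratios scaling and crosses are values after adjustment for GC content and length. UBE2V2 stays left of 0 under all 3, and UBE2J1, UBE2N, UBE2G1, UBE2W and, by 0.04, UBE2B cross to the right of 0 with the adjustment.

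The E2s that start chains with RING ligases held 8 tested genes, of which 2 were higher, UBE2E2 among them, 4 were lower and 2 missed the threshold, with a median of -0.11. These counts lay near the background, as 22.7% of all tested genes were higher and 48.9% lower. UBE2D1 to UBE2D4 are close relatives that work with many RING and HECT ligases, and their coding sequences are alike. UBE2D1, UBE2D2 and UBE2D4 share 77.7%, 83.8% and 77.5% of aligned coding bases with UBE2D3. The same stretch of each coding sequence, coding bases 211 to 300 of the GENCODE 29 transcript, is shown to give the scale of that likeness, with the 28 of 90 columns that are not identical among the 4 in capitals.
UBE2D1: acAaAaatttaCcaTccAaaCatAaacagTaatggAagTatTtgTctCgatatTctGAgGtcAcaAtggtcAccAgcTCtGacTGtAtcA
UBE2D2: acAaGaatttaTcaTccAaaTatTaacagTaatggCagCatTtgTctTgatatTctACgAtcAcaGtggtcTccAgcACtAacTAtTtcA
UBE2D3: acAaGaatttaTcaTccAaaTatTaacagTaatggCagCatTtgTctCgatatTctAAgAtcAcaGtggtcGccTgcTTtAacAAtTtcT
UBE2D4: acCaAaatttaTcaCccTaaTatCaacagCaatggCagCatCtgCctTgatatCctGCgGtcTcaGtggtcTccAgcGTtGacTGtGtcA

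Within this quartet only UBE2D1 fell. It had 24.6, 26.8 and 28.6 TPM in 16'-DEC libraries against 87.4, 90.0 and 74.3 TPM in DMSO libraries, which is 0.318 of the DMSO mean. No libraries overlapped, and the change was -1.62 ± 0.0972 (adjusted p = 1.05e-06). UBE2D3 had 269, 276 and 240 TPM after 16'-DEC against 231, 226 and 227 TPM in DMSO, a small rise of 0.20 ± 0.0729 (adjusted p = 0.0375). UBE2D2 averaged 115 ± 1.68 TPM after 16'-DEC and 108 ± 5.76 TPM in DMSO (0.09, adjusted p = 0.261). UBE2D4, the scarcest of the 4, averaged 8.57 ± 0.745 TPM after 16'-DEC and 7.95 ± 0.351 TPM in DMSO (0.09, adjusted p = 0.401). Summed over the 4 genes the levels overlapped, with 412 ± 20.1 TPM after 16'-DEC and 428 ± 12.8 TPM in DMSO. After the GC and length adjustment UBE2D1 was at -0.04 (adjusted p = 0.704), and UBE2D3 was at 0.91.

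UBE2E1, UBE2E2 and UBE2E3 attach single ubiquitins and carry N-terminal extensions. UBE2E1 fell to 94.5 ± 3.78 TPM in 16'-DEC libraries, against 170 ± 12.8 TPM in DMSO libraries (-0.84, adjusted p = 1.49e-05), but was at -0.10 (adjusted p = 0.174) after the GC and length adjustment. UBE2E3 was at 144 ± 5.26 TPM after 16'-DEC and 178 ± 13.1 TPM in DMSO (-0.31, adjusted p = 0.00575), but its change was 0.04 (adjusted p = 0.692) after median-of-ratios scaling. UBE2E2 had 1.25, 1.11 and 1.72 TPM in 16'-DEC libraries against 0.689, 0.801 and 0.715 TPM in DMSO libraries, without overlap. No call is drawn from its test, since it was tested only through its 16'-DEC level, and with no minimum on TPM its adjusted p was 0.0706. UBE2W, which attaches ubiquitin to the N-terminus of proteins, had 10.6, 10.9 and 9.99 TPM after 16'-DEC against 33.2, 29.1 and 30.8 TPM in DMSO. Its groups were far apart, at -1.48 ± 0.0855 (adjusted p = 8.68e-07), yet the value after GC and length adjustment was 0.23 (adjusted p = 0.0131). Exons of UBE2W share bases on the same strand with AC022826.2.

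Among the K48-chain and ERAD E2s, 2 of 6 were higher, 3 were lower and 1 missed the threshold, with a median of -0.13. Over all tested genes 22.7% were higher and 48.9% lower, so the lower count was near the background. UBE2J1 and UBE2J2, both anchored in the ER membrane by a tail, moved in opposite directions on the deposited scale and after both scalings, but not after the GC and length adjustment. UBE2J1 had 30.7, 34.6 and 30.0 TPM in 16'-DEC libraries against 58.1, 57.3 and 56.3 TPM in DMSO libraries, a change of -0.83 ± 0.0796 (adjusted p = 1.76e-05). UBE2J2 had 89.0, 88.7 and 86.1 TPM after 16'-DEC against 55.5, 72.1 and 65.2 TPM in DMSO, a change of 0.45 ± 0.0979 (adjusted p = 0.00264). In DMSO their levels were close, and after 16'-DEC every library held at least 2.56 times as much UBE2J2 as UBE2J1. After the GC and length adjustment the order turned, with 0.41 for UBE2J1 and 0.13 for UBE2J2 (adjusted p = 0.0576).

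UBE2G2, the ERAD E2 recruited by AUP1, averaged 28.3 ± 3.37 TPM after 16'-DEC and 41.3 ± 4.24 TPM in DMSO (-0.53, adjusted p = 0.00232), and its change after median-of-ratios scaling was -0.19 (adjusted p = 0.0929). UBE2G1, which extends K48 chains on substrates of cullin ligases, averaged 30.6 ± 2.27 TPM after 16'-DEC and 39.7 ± 1.88 TPM in DMSO. Its change of -0.37 (adjusted p = 0.00382) became -0.02 after median-of-ratios scaling and 0.78 after the GC and length adjustment. UBE2K, which builds K48 chains without an E3 in vitro, rose by 0.20 (adjusted p = 0.022), with 89.6 ± 2.94 TPM after 16'-DEC and 77.6 ± 1.12 TPM in DMSO. UBE2R2, an E2 of cullin-RING ligases, had 29.2 ± 0.917 TPM after 16'-DEC and 26.9 ± 2.06 TPM in DMSO, a difference of 0.11 that did not pass (adjusted p = 0.25). Its close relative CDC34, an E2 under another symbol, rose by 0.94 (adjusted p = 5.01e-05), with 246 ± 12.5 TPM after 16'-DEC and 129 ± 18.1 TPM in DMSO.

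K63 chains are made by UBE2N paired with a catalytically inactive variant, UBE2V1 or UBE2V2. UBE2V2, the variant known for DNA damage tolerance, showed the largest fall of all E2 genes under the deposited scale. It had 25.6, 26.4 and 27.8 TPM in 16'-DEC libraries against 114, 125 and 113 TPM in DMSO libraries, or 0.227 of the DMSO mean. The groups were far apart, with a change of -2.10 ± 0.0759 (adjusted p = 1.30e-07). After median-of-ratios scaling it was -1.75, and after the GC and length adjustment it was -0.41 (adjusted p = 0.00257). UBE2V1, the variant tied to inflammatory signalling, had 242, 237 and 218 TPM after 16'-DEC against 202, 213 and 199 TPM in DMSO, a rise of 0.18 ± 0.0701 (adjusted p = 0.0421).

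With pseudogene rows added, UBE2V1 missed the threshold (0.17, adjusted p = 0.0503), and its exons share bases with the read-through gene TMEM189-UBE2V1. UBE2N itself fell to 81.6 ± 4.07 TPM in 16'-DEC libraries, against 128 ± 6.29 TPM in DMSO (-0.64, adjusted p = 5.70e-05), and was at 0.42 after the GC and length adjustment. Its exons overlap NUDT4 on the opposite strand, and the protocol names no strand marking. The variants summed were 259 ± 11.6 TPM after 16'-DEC and 322 ± 13.3 TPM in DMSO, so UBE2N amounted to 0.315 ± 0.0072 of its partners after 16'-DEC and 0.398 ± 0.0338 in DMSO.

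Of the chromatin and DNA repair E2s, none of 3 was higher and 2 were lower on the deposited scale, where 22.7% of all tested genes were higher and 48.9% lower. UBE2A and UBE2B are the human forms of yeast RAD6, which mark histone H2B and the clamp PCNA. In the same coding stretch, bases 211 to 300, 16 of 90 columns, in capitals, are unlike.
UBE2A: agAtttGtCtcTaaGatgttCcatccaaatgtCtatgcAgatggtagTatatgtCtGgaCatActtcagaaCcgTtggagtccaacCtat
UBE2B: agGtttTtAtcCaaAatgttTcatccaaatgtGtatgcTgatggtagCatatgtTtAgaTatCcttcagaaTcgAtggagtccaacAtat

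UBE2A had 50.8, 51.0 and 50.4 TPM in 16'-DEC libraries against 50.3, 53.8 and 48 TPM in DMSO libraries, with a difference of 0.003 (adjusted p = 0.974), and passed as higher after median-of-ratios scaling (0.35, adjusted p = 0.00275). UBE2B had 93.3, 106 and 115 TPM after 16'-DEC against 211, 241 and 181 TPM in DMSO, a fall of 1.00 ± 0.117 (adjusted p = 6.58e-05). The UBE2A groups overlapped and the UBE2B groups did not, and their sum was 155 ± 10.8 TPM after 16'-DEC and 261 ± 32.9 TPM in DMSO. After the GC and length adjustment UBE2B was at 0.04 (adjusted p = 0.777) and UBE2A at 0.74. UBE2T, the E2 of the Fanconi anaemia pathway that works with FANCL, had 22.1, 23.5 and 25.2 TPM after 16'-DEC against 51.9, 53.9 and 47.9 TPM in DMSO, a change of -1.09 ± 0.0848 (adjusted p = 4.78e-06). It stayed lower after the GC and length adjustment, at -0.45 (adjusted p = 7.18e-04).

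Among the remaining tested E2s UBE2Q2 changed most. UBE2L3, the E2 of HECT and RING-between-RING (RBR) ligases, had 67.6 ± 0.623 TPM after 16'-DEC and 77.4 ± 4.46 TPM in DMSO (-0.19, adjusted p = 0.0388), but 0.16 (adjusted p = 0.0952) after median-of-ratios scaling. UBE2H, the E2 of the CTLH ligase, had 25.9, 26.1 and 18.0 TPM after 16'-DEC against 35.3, 31.4 and 35.1 TPM in DMSO (-0.54, adjusted p = 0.00715), and -0.20 (adjusted p = 0.136) after median-of-ratios scaling and -0.07 (adjusted p = 0.461) after the GC and length adjustment. UBE2O, a large hybrid of E2 and E3, averaged 28.7 ± 4.08 TPM after 16'-DEC and 21.0 ± 1.47 TPM in DMSO, a rise of 0.43 (adjusted p = 0.00833). UBE2Q1 and UBE2Q2, large E2s with a divergent N-terminal part, moved apart. UBE2Q1 rose by 0.25 (adjusted p = 0.0148), with 105 ± 4.87 TPM after 16'-DEC and 87.9 ± 4.96 TPM in DMSO, and UBE2Q2 fell by 1.11 (adjusted p = 4.70e-06), with 11.5 ± 0.454 TPM after 16'-DEC and 26.0 ± 1.83 TPM in DMSO. UBE2Q2 was at -0.19 (adjusted p = 0.0229) after the GC and length adjustment.

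Related E2 genes can be compared within a library, where the scaling of the library nearly cancels. Of 13 pairs, 11, with UBE2E2 over UBE2E3 among them, had log2 ratios that did not overlap between the groups. For each of these the exact 2-sided permutation p was 0.1, the smallest that 3 libraries against 3 can give (0.118 after Benjamini-Hochberg adjustment over the pairs), so none can pass 0.05. The share of other gene pairs without overlap was not computed, and 75.3% of all tested single genes did not overlap, so the count is no result about these pairs. UBE2V1 stood at 8.76 ± 0.839 times the TPM of UBE2V2 after 16'-DEC and 1.75 ± 0.0367 times in DMSO, although 83% of the aligned coding bases of the pair are identical. UBE2Q1 was at 9.11 ± 0.53 times UBE2Q2 after 16'-DEC and 3.39 ± 0.261 times in DMSO, with 66.1% identity.

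Further pairs shifted as well, some in the other direction. UBE2D1 was at 0.102 ± 0.0145 of UBE2D3 after 16'-DEC and 0.368 ± 0.0364 in DMSO, a log2 ratio change of -1.81 (77.7% identity). UBE2R2 was at 0.119 ± 0.00861 of CDC34 after 16'-DEC and 0.212 ± 0.0263 in DMSO (73% identity). UBE2A was at 0.488 ± 0.0532 of UBE2B after 16'-DEC and 0.243 ± 0.0213 in DMSO (80.5% identity), and UBE2J2 at 2.78 ± 0.184 times UBE2J1 after 16'-DEC and 1.12 ± 0.153 times in DMSO (47.5% identity). The overlapping pairs were UBE2D2 with UBE2D3 and UBE2G2 with UBE2G1 (exact p = 0.3 each). Adjusted for GC content and length, a setting added after seeing the data, the log2 ratio change of UBE2V1 over UBE2V2 was 1.10 and that of UBE2D1 over UBE2D3 was -0.95. It was 0.58 for UBE2Q1 over UBE2Q2, 0.69 for UBE2A over UBE2B and -0.10 for UBE2R2 over CDC34, while UBE2J2 over UBE2J1, UBE2M over UBE2F and UBE2E1 over UBE2E3 changed sign.

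**Figure D3:**
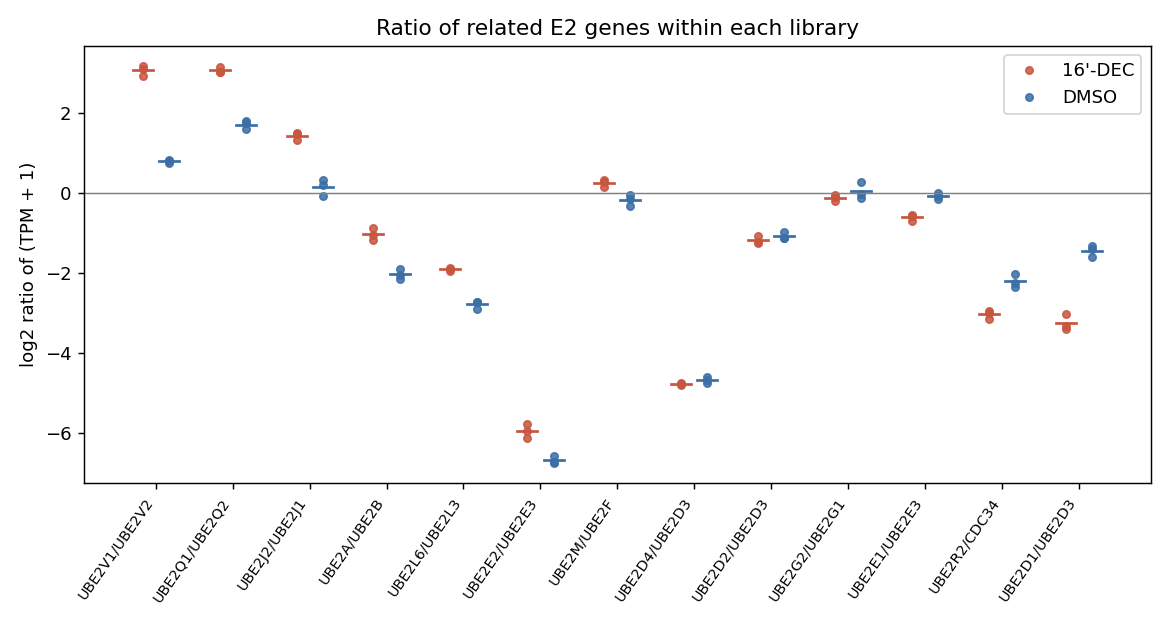
Log2 ratio of (TPM + 1) of related E2 genes in each library, with 16'-DEC left of DMSO in every pair and bars at the group means, sorted by the change. UBE2V1 over UBE2V2 is furthest apart at the left, and UBE2D1 over UBE2D3 at the right.

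Transcript GC content, taken from GENCODE 29 on GRCh38, moved with the change in the E2 genes as it did in all protein-coding genes. Across the 30 tested E2 genes Spearman's rho between GC content and log2 change was 0.667 and Pearson's r was 0.71, and with the GC content of the 3' UTR alone rho was 0.741. Across 11401 tested protein-coding genes rho was 0.705 and r was 0.684. These are correlations across genes that share the same 6 libraries, given as a description. UBE2K, UBE2V2, UBE2D1 and UBE2W had transcripts under 40% GC and a median change of -1.55, beside -1.52 for the 1671 protein-coding genes of that range. The 17 E2 genes from 40% to 50% GC had a median of -0.31, beside -0.62 for 4313 genes, and the 9 above 50% had 0.37, beside 0.23 for 5417 genes.

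UBE2K departed from this pattern among the 4 of low GC content: its transcript held 36.8% GC, yet it was higher after 16'-DEC, and its change after the GC and length adjustment, 1.75, was the largest of the E2 genes. UBE2M, at 65.6% GC, was the E2 transcript richest in GC. UBE2T (43.7%) and UBE2G2 (50.5%) were lower and stayed lower after the adjustment, at -0.45 and -0.38 (adjusted p = 0.00338 for UBE2G2). The part of GC content in the changes was not tested.

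**Figure D4:**
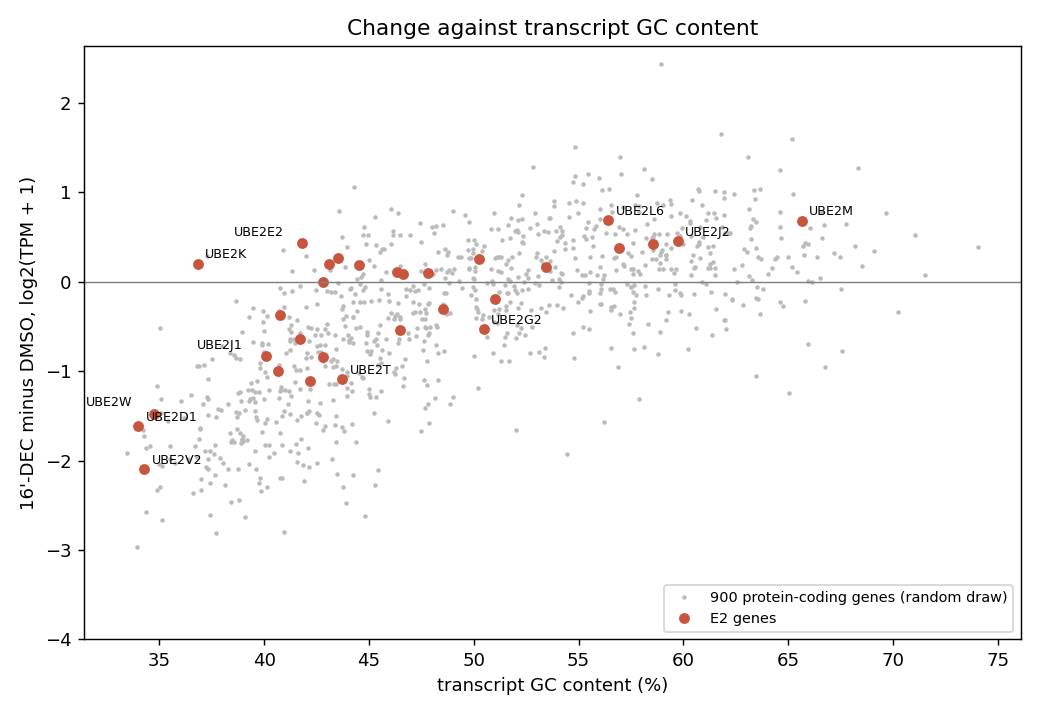
Log2 change, 16'-DEC minus DMSO, against transcript GC content for the 30 tested E2 genes (red) and 900 protein-coding genes drawn at random (grey). The E2 genes follow the grey cloud from UBE2V2 at the lower left to UBE2M at the right, with UBE2K above it.

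Promoter windows of the E2 genes were rich in GC. RefSeq (GRCh38.p14) gave windows of the 250 bases before the start for 26 of the 33 E2 genes, 38 windows in all, some genes having several. Their median GC content was 72%, against 58% over all 35116 windows. Parts of the windows of UBE2D1, UBE2J1 and UBE2J2 are shown because these genes had a single window each and changed by -1.62, -0.83 and 0.45. Bases that GENCODE 29 places inside the gene were removed, and GC boxes (GGGCGG on either strand, overlaps counted) are in capitals. The stretches are chr10:58334756-58334974 on the plus strand, chr6:89352849-89352972 on the minus strand and chr1:1273886-1274104 on the minus strand, in that order.
UBE2D1: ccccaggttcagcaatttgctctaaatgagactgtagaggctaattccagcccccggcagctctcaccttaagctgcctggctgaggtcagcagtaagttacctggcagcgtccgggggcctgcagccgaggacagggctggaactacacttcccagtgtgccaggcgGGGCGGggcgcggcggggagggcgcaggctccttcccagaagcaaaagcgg
UBE2J1: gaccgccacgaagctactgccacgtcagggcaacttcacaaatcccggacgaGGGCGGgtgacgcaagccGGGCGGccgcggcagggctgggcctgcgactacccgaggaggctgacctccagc
UBE2J2: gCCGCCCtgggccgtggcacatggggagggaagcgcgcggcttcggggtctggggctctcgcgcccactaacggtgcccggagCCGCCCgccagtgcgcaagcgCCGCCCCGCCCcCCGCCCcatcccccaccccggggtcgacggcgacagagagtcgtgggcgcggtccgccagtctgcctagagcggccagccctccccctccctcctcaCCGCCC

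These stretches were 63.5%, 70.2% and 78.1% GC, while the transcripts of the same genes were 34%, 40.1% and 59.7% GC. A GC box was found in 29 of the 38 windows of E2 genes, or 76.3%, and in 42.6% of all windows. The CCAAT box (CCAAT) was in 26.3% of E2 windows and 32% of all, and the TATA box (TATAAA) in 2.63% of E2 windows and 10.7% of all. The ETS core (CCGGAAG) was in 13.2% of E2 windows and 8.52% of all. The AP-1 site (TGACTCA), the CRE core (TGACGTCA) and the E-box (CACGTG) were in none of the 38, and in 4.2%, 1.65% and 6.34% of all windows. All motifs were searched on both strands, and a match describes letters and not a bound site.

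The partners of the E2s were followed through lists of E1 enzymes, ligases and adaptors. Their counts stand beside 22.7% of all tested genes higher and 48.9% lower on the deposited scale, 37.1% and 37.7% after median-of-ratios scaling, and 34.5% and 31.7% after the GC and length adjustment. Of 10 E1 genes 3 were higher and 5 lower, which is near that background, with a median of -0.45, and 4 were higher and 5 lower after median-of-ratios scaling and likewise after the GC and length adjustment. NAE1 and UBA3, the subunits of the NEDD8 E1, fell by 2.04 (adjusted p = 1.30e-07) and 1.51 (adjusted p = 7.09e-07). NAE1 had 27.0 ± 1.22 TPM after 16'-DEC and 114 ± 4.68 TPM in DMSO. The NEDD8 E1 was thus lower where both NEDD8 E2s were higher. The rise of UBE2F, however, did not pass with its pseudogene rows added. UBA1, the main ubiquitin E1, rose by 0.56 (adjusted p = 6.59e-04) and SAE1, a subunit of the SUMO E1, by 0.44. UBA6, named here for its link to UBE2Z after its values were seen, had 8.94 ± 3.43 TPM after 16'-DEC and 46.4 ± 10.4 TPM in DMSO (-2.29, adjusted p = 2.45e-05).

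The list of NEDD8 ligation to cullins, which holds that E1 too, had 12 of 15 genes lower and 2 higher, with a median of -1.32. CUL5, a cullin scaffold, had 4.69 ± 0.832 TPM after 16'-DEC and 33.5 ± 2.07 TPM in DMSO (-2.61, adjusted p = 2.63e-07), and CUL4B changed by -1.98. The higher genes were RBX1 (0.27) and RNF7 (0.37), the RING subunits with which UBE2M and UBE2F work. After the GC and length adjustment 11 of the 15 were lower and 3 higher, with a median of -0.45.

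ERAD ligases and E2 adaptors went the other way, with 7 of 12 higher and 4 lower and a median of 0.42. DERL1, a channel subunit, had 59.5 ± 2.39 TPM after 16'-DEC and 27.9 ± 2.97 TPM in DMSO (1.07, adjusted p = 9.79e-06). AUP1, which recruits UBE2G2, had 246 ± 4.96 TPM after 16'-DEC and 134 ± 12.9 TPM in DMSO (0.88, adjusted p = 1.60e-05), and HERPUD1, an ER stress gene, rose by 0.74. SEL1L, the scaffold of the ligase SYVN1, fell by 1.24 (adjusted p = 3.60e-05), and TRIM13, an ER-bound ligase, by 0.40 (adjusted p = 0.00145), but they were at 0.12 (adjusted p = 0.154) and 0.97 after the GC and length adjustment. Median-of-ratios scaling left 7 higher and 1 lower, and the GC and length adjustment gave 11 higher and none lower.

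Ligases of the RAD6 pair and UBE2T had 7 of 9 genes lower and 2 higher, with a median of -0.98. FANCL, the ligase of UBE2T, had 17.1 ± 0.916 TPM after 16'-DEC and 67.3 ± 4.81 TPM in DMSO (-1.91, adjusted p = 2.38e-07). RAD18, which directs RAD6 to PCNA, changed by -1.74 and UBR1, an N-end rule ligase, by -1.41, while RNF40, a histone H2B ligase, rose by 0.53 and UBR4 by 0.30. With the GC and length adjustment 3 of the 9 were lower and 2 higher, with a median of -0.12, and UBR1 was at -0.12 (adjusted p = 0.35).

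Among 10 K63-chain ligases of UBE2N 3 were higher and 4 lower, with a median of 0.04, and after median-of-ratios scaling 6 were higher and 3 lower and after the GC and length adjustment 6 and 2. HLTF, a PCNA ligase, changed by -2.86 (adjusted p = 2.25e-07) and SHPRH, its relative, by -1.63, and RNF168 by -0.61, while STUB1 rose by 0.66 and CHFR by 0.41. RNF168 was at 0.10 (adjusted p = 0.213) after the GC and length adjustment. Of 10 genes of SUMO ligation 3 were higher and 4 lower, with a median of -0.25, and after median-of-ratios scaling 4 were higher and 4 lower. The GC and length adjustment turned the balance to 6 higher and 3 lower, with a median of 0.31. RANBP2, a nuclear pore protein with SUMO ligase activity, changed by -2.24 (adjusted p = 1.17e-07), ZNF451 by -1.70 and UBA2, the catalytic subunit of the SUMO E1, by -0.94, and PIAS4 rose by 0.53. ZNF451 was at -0.19 (adjusted p = 0.0752) after the GC and length adjustment.

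RBR ligases had 10 of 12 genes tested, 4 higher and 3 lower, with a median of 0.17, and after median-of-ratios scaling 6 were higher and 2 lower and after the GC and length adjustment 5 and 1. RNF19B (0.56), RBCK1 (0.45) and SHARPIN (0.37) were higher, and RNF19A (-1.21) and RNF144A (-0.70) were lower. After the GC and length adjustment RNF19A was at 0.07 (adjusted p = 0.289) and SHARPIN at 0.11 (adjusted p = 0.19).

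The CTLH ligase had 2 of 11 higher and 4 lower, with a median of -0.04, and after median-of-ratios scaling 6 higher and 3 lower. ARMC8 (-0.89), RANBP9 (-0.70) and RMND5A (-0.69) were lower, and MAEA (0.41) and RMND5B (0.39) were higher. The GC and length adjustment gave 8 higher and 1 lower, with ARMC8 at 0.20 (adjusted p = 0.0104) and RMND5A at 0.25 (adjusted p = 0.00913) turned to higher. Of the 8 E2 and E2-like genes with other symbols, 2 were higher and 4 lower, with a median of -0.35, and after median-of-ratios scaling 3 were higher and 3 lower. The GC and length adjustment gave 6 higher and 2 lower, with a median of 0.62. BIRC6, an inhibitor of apoptosis with an E2 domain, changed by -1.18, ATG3, the E2-like enzyme of autophagy, by -0.94 and UEVLD by -0.87, while UFC1, the UFM1 E2, rose by 0.44 beside CDC34. UEVLD turned to 0.64 (adjusted p = 3.63e-04) after the GC and length adjustment.

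**Figure D5:**
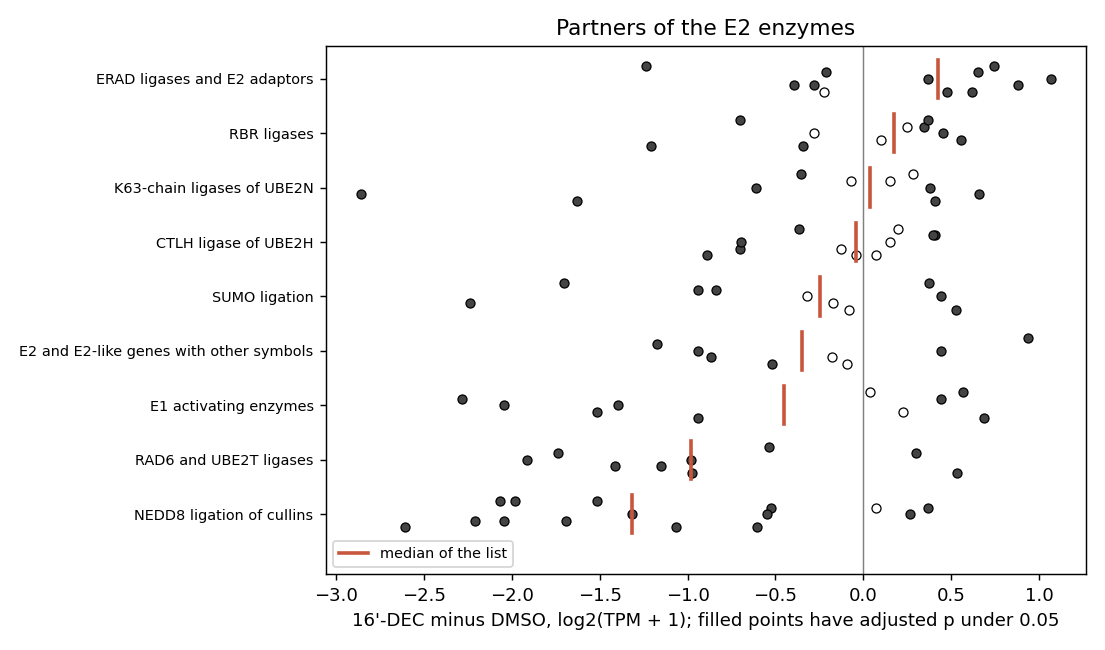
Log2 change, 16'-DEC minus DMSO, of each tested gene in the 9 partner lists, ordered by list median (red bars), with filled points where adjusted p is under 0.05. ERAD ligases and adaptors lie furthest right, with a median of 0.42, and NEDD8 ligation of cullins furthest left, with a median of -1.32.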

How the data were processed

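Poly(A) RNA of 3 16'-DEC and 3 DMSO libraries was analysed. The authors deposited a table of TPM values for 78304 genes, summing to 1000000 in each library, so depth is unknown. Tools in the submitters' processing notes, listed without roles, are HISAT2 2.0.1, cutadapt 1.9.1, DESeq2 and HTSeq 0.6.1, with the build GRCh38; the annotation is not given in the sources used here. Genes averaging 1 TPM or more were tested with limma 3.58.1 (R 4.3.3) on the log2(TPM + 1) scale (mean trend, 2-sided, Benjamini-Hochberg over all 14275 genes, threshold 0.05); fold changes on this scale understate the change of low genes. The fit was tested on simulated data. Exact permutation tests compared ratios of related genes.

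The members, roles, pairs and partner lists were chosen with earlier results of these data known. Members are named, except some genes not reported here; of each partner list, the up to 3 most significant genes of the commoner direction and 2 of the rarer one. Alternatives were pseudocounts of 0.1 and 5, omitting the filter or raising it to 5 TPM, 2 scalings, removal of mitochondrially encoded genes, no trend, a replicate block, a GC and length adjustment (natural splines, 5 degrees of freedom, GENCODE 29, 93.1% of tested genes matched), leaving out each library and a threshold of 0.01. Exons of 11 members overlap another gene, 8 on the opposite strand, among them UBE2N, UBE2D3, UBE2E3, UBE2Q1, UBE2L3, UBE2A and UBE2D4. For UBE2V1, UBE2F and UBE2W the overlap is on the same strand. Identical values between any 2 libraries came to at most 0.0692%.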

Additional observations from a re-analysis of the deposited data

How the results depend on the processing

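Depth is unknown, and 3 libraries per group limit the precision. The count of higher E2 genes, 11, became 19 with the GC and length adjustment and 5 at a threshold of 0.01, and ran from 7 to 11 without single libraries. The count of lower E2 genes, 14, became 9 after median-of-ratios scaling and 4 with the GC and length adjustment. Over all genes the higher count was 5290 after median-of-ratios scaling and 5990 after quantile normalization, and the lower count was 4213 with the GC and length adjustment. Correlations of deviations were 0.0941, -0.182 and -0.0726 for same-numbered libraries and ran from -0.196 to 0.274 for differently numbered ones. With 3 libraries per group such values cannot tell whether the replicate numbers pair the libraries. With the replicate block 8 E2 genes were higher and 13 lower, and with the block and the GC and length adjustment 19 were higher and 3 lower, with 3982 lower over all genes. Directions turned for UBE2E3 (0.0414) and UBE2L3 (0.16) after median-of-ratios scaling and for UBE2L3 (0.0344) after quantile normalization. With the GC and length adjustment, with or without the block, they turned for UBE2B (0.0414), UBE2N (0.42), UBE2J1 (0.41), UBE2G1 (0.78) and UBE2W (0.23), and the log2 ratio changes of UBE2E1 over UBE2E3 (0.0785), UBE2J2 over UBE2J1 (-0.27) and UBE2M over UBE2F (-0.51) turned too. UBE2A, which did not pass, was at -0.00441 without mitochondrially encoded genes and from -0.0349 to 0.0458 without single libraries. The cause was not tested. Every other E2 gene kept its direction under every alternative. Calls were lost with the GC and length adjustment for UBE2D1, UBE2E1, UBE2E3, UBE2H, UBE2J2 and UBE2L3 as well as UBE2B, and for UBE2Q2 when the block was added to it (adjusted p = 0.0637).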

Other observations

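The table holds 45 rows named as pseudogenes of E2 genes in the set, and 4 of them averaged at least 1 TPM. UBE2Q2P1 had 1.14, 0.898 and 0.828 TPM in 16'-DEC libraries against 7.35, 6.08 and 5.37 TPM in DMSO libraries, and UBE2FP3 had 0.32, 0.491 and 0.203 TPM after 16'-DEC against 2.15, 2.14 and 2.36 TPM in DMSO. UBE2FP1 had 2.5, 3.61 and 3.43 TPM in 16'-DEC libraries against 5.33, 8.15 and 6.88 TPM in DMSO libraries. All 3 were lower in every 16'-DEC library, while the parent gene UBE2F was higher and UBE2Q2 lower. UBE2Q2P1 and UBE2FP3 reached a mean of 1 TPM only through their DMSO libraries, so no result is drawn from their lower levels. UBE2Q2P13 had 1.41, 2.10 and 2.39 TPM after 16'-DEC against 3.56, 3.26 and 2.60 TPM in DMSO, and was lower in every 16'-DEC library too. Reads of such near copies may be shared with the parent genes, so these levels are uncertain.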
